A study of Mus musculus with 21 samples.

Results

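The Schlafen genes are a family of mouse genes that lie side by side on chromosome 11. All 6 family members with both a row in the expression table and a protein-coding annotation were taken by name: Slfn1, Slfn2, Slfn3, Slfn5, Slfn8 and Slfn9, which are 6 of 11736 genes measured. RNA was sequenced from natural killer (NK) cells sorted from mouse spleen and kept in culture with human interleukin 15 (IL-15) at 50 ng/ml, a cytokine that NK cells need to survive and divide. The 15 libraries fall into 4 genotypes: DKO, in which Ikzf1 and Ikzf3 were both deleted conditionally in NK cells (libraries S5 to S7), Ikzf1 KO (S12 to S15), Ikzf3 KO (S1 to S4) and the Cre only controls (S16 to S19). The controls are named for Cre, and the sample titles do not say whether the single knockouts carry it too. The mouse line that supplies Cre, and the age, sex and strain of the animals, are not given in the labels. Ikzf1 and Ikzf3 encode Ikaros and Aiolos, related zinc-finger proteins that bind DNA and regulate transcription in lymphocytes. The comparisons ask how the loss of either or both changed RNA levels.

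Schlafen proteins share a core domain, which in some members can cut transfer RNA. They are known for restraining viruses and for holding lymphocytes in a resting state. The family divides by length. Slfn1 and Slfn2 encode short proteins, Slfn3 an intermediate one, and Slfn5, Slfn8 and Slfn9 long proteins with an added helicase-like domain. Many Schlafen genes are induced by type I interferon. In mice, a loss-of-function mutation of Slfn2 is known to deprive T cells of quiescence.

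On the mm10 genome build (GRCm38), the cluster held 9 annotated Schlafen genes within 335.4 kb. In the order of the chromosome, Slfn5 lies at chr11:82951349-82964840 on the plus strand, Slfn9 at chr11:82978390-82991830 and Slfn8 at chr11:83002158-83020810, both on the minus strand. They are followed by the pseudogene Slfn10-ps, then by Slfn2 at chr11:83065112-83070678, Slfn1 at chr11:83116849-83122670 and Slfn3 at chr11:83191330-83215154, all 3 on the plus strand. Slfn4 and Slfn14, annotated in the same cluster, were not analysed here. Ikzf3, the gene deleted in 2 of the groups, lies 15.2 Mb from the cluster on the same chromosome, and Ikzf1 lies 71.2 Mb away. The effect of losing Aiolos therefore cannot be told apart from that of any flanking sequence carried along with the Ikzf3 allele.

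The start-site regions of the long members are shown because Slfn8 and Slfn9, which lie side by side, had unlike levels across the genotypes. Slfn5 had yet another pattern. Each sequence is the RefSeq promoter of GRCm38.p6, from 250 bases before to 50 after the start of transcription. Capitals mark GGGAA, the core of the Ikaros and Aiolos binding motif, and the core of the interferon-stimulated response element, a pair of GAAA half-sites with 2 bases between them, each on either strand.
Slfn8 (chr11:83020761-83021060, minus strand): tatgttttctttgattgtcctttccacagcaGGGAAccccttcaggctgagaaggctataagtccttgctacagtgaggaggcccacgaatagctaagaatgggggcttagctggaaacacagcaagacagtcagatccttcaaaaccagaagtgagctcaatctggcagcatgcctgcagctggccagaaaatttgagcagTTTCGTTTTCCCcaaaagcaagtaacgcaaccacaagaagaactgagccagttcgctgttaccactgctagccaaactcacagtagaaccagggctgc
Slfn9 (chr11:82991781-82992080, minus strand): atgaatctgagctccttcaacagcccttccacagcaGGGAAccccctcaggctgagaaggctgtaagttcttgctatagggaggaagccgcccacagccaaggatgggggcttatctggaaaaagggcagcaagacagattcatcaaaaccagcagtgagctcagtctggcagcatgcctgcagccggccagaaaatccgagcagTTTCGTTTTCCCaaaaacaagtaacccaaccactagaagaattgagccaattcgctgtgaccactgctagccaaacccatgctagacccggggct
Slfn5 (chr11:82951852-82952151, plus strand): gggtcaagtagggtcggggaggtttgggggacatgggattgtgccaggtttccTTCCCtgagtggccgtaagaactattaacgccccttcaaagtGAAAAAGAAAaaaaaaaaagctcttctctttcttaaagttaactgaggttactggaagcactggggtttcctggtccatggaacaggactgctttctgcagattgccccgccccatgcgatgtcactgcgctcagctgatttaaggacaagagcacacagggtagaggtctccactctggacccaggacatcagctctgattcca
The Slfn8 and Slfn9 sequences were identical at 246 of 295 aligned bases (83.4%), whereas the next most alike pair of members reached 64.5%. Both held the same 12-base run, TTTCGTTTTCCC, in which the interferon element and a GGGAA overlap. It began 48 bases before the start in Slfn8 and 45 bases before it in Slfn9. RefSeq gives Slfn8 another start as well, with its promoter at chr11:83020673-83020972, and the run began 136 bases before that start. In Slfn5 the interferon element lay 155 to 146 bases before the start and overlapped no GGGAA.

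The interferon element was found in the promoters of these 3 members and not in those of Slfn1, Slfn2 and Slfn3. Among 32851 mouse promoters of the same length, 3.44% held it and 0.584% held it overlapping the Ikaros core. The Ikaros core itself was found in 5 of the 6 members, all but Slfn1, against 62.7% of all promoters. Neither the AP-1 motif (TGA and TCA around 1 base) nor the interferon gamma activated site (TTC and GAA around 3 bases) was found in any of the 6, against 7.81% and 8.3% of all promoters. These matches are of letters only, and no binding was measured.

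Levels were compared as RPKM, reads scaled to gene length and to library size. Depth recovered from the RPKM ran from 8.6 to 21.2 megareads per library. Within the Ikzf3 KO group, over the 10032 genes tested, libraries S1 and S2 correlated at 0.990 and S3 and S4 at 0.974. The 2 pairs correlated with each other at only 0.895 to 0.913. With the Cre only libraries S1 and S2 correlated more highly, at 0.954 to 0.965. The Cre only pairs S16 and S17 (0.993) and S18 and S19 (0.988) stood apart less, at 0.964 to 0.975. Ikzf1 RNA averaged 30.3 RPKM in DKO, 19.1 in Ikzf1 KO, 81.4 in Ikzf3 KO and 61.9 in Cre only cells, and Ikzf3 RNA 21.5, 48.3, 17.8 and 41.8 in the same order. Of 8 NK cell markers 7 had a row, and they summed to 2111 to 4812 RPKM in DKO, 10877 to 11713 in Ikzf1 KO, 2872 to 11889 in Ikzf3 KO and 9602 to 12868 in Cre only libraries. Among them Ncr1, the defining NK receptor, averaged 201 RPKM in DKO, 112 in Ikzf1 KO, 146 in Ikzf3 KO and 147 in Cre only cells. In the same order, Klrb1c averaged 190, 143, 163 and 198 RPKM and Eomes 71.8, 47.5, 69.8 and 53.5 RPKM. The lower sum in DKO libraries lay in the other markers of the list, whose separate values are not given here. Ncr1, Klrb1c and Eomes therefore do not stand for the whole list. The lowest Ikzf3 KO sum, 2872 RPKM, lay within the DKO range and below every Cre only library. The cause of the low sums was not tested. The B cell marker with a row reached at most 2.23 RPKM, and the 2 myeloid markers with a row summed to 4.92 to 72.7 RPKM. No red blood cell marker of the 4 listed had a row.

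Slfn2 was the most abundant member in each of the 15 libraries and made up 79.9% to 95.6% of the summed Schlafen RPKM. The other members changed places. In every Cre only library Slfn8 was the second most abundant member, and in every Ikzf1 KO library Slfn9 held that place. In the 4 Cre only libraries the ratio of Slfn8 to Slfn9 ran from 2.07 to 3.75, against 0.147 to 0.176 in DKO, 0.691 to 0.795 in Ikzf1 KO and 0.128 to 0.209 in Ikzf3 KO libraries.

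Of the 6 members, 3 changed in DKO cells against Cre only cells (Slfn1 and Slfn5 higher, Slfn8 lower), where 18.7% of the 10032 genes tested changed, 8.06% upward and 10.6% downward. In Ikzf1 KO cells 2 members changed (Slfn5 and Slfn9, both higher), where 6.32% of genes did, 3.54% upward and 2.78% downward. In Ikzf3 KO cells 3 members changed (Slfn5, Slfn8 and Slfn9, all lower), where 14.2% of genes did, 6.3% upward and 7.88% downward. Libraries of the groups did not overlap for 3 members in DKO cells (35% of all genes), for 3 in Ikzf1 KO cells (24.9%) and for 2 in Ikzf3 KO cells (18.2%). A change here is an adjusted p below 0.05 in limma's moderated test on log2(RPKM + 0.5), with Benjamini-Hochberg adjustment over all genes tested. The 3 comparisons share the 4 Cre only libraries. All 6 members passed the filter of at least 1 RPKM in at least 3 libraries. Slfn1 reached 1 RPKM in the DKO libraries and in S13, S14, S16 and S17, and Slfn5 in the DKO and Ikzf1 KO libraries and in S17. In the Ikzf3 KO and Cre only libraries alone neither gene passed the filter. Slfn5 entered that comparison through the groups where it was high. Fold changes on the log2(RPKM + 0.5) scale understate the change of genes near or below 0.5 RPKM.

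**Figure D1:**
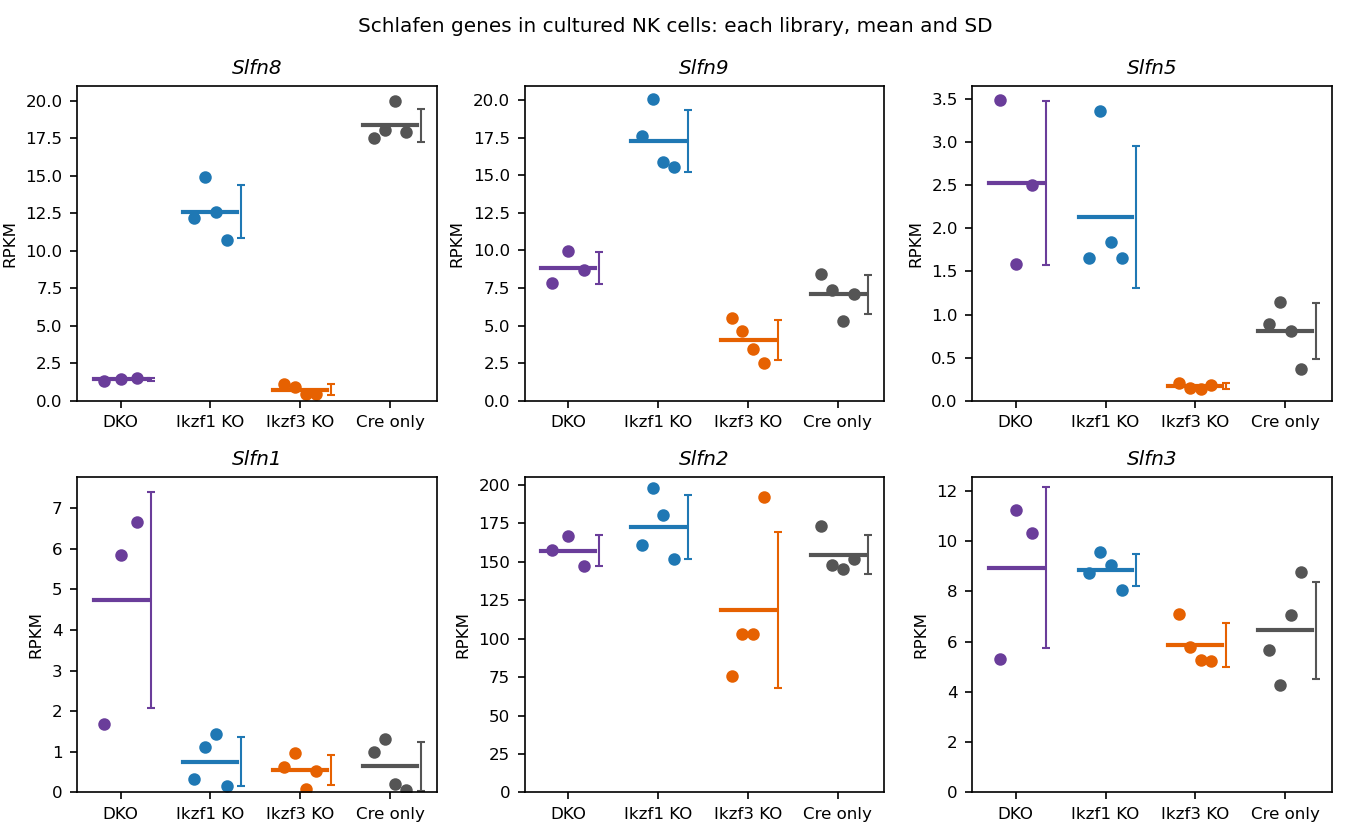
Level of each Schlafen gene in each of the 15 cultured NK libraries, in RPKM on a linear axis. Genotypes run from DKO at the left to Cre only at the right. Points are libraries, horizontal bars are group means and vertical bars show the SD. Slfn8 sits between 17.5 and 20.0 RPKM in Cre only libraries and at or below 1.53 RPKM in every DKO and Ikzf3 KO library, while Slfn2 stays above 75 RPKM in all groups.

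Slfn8, a long Schlafen gene, was the member with the largest difference between genotypes. It stood at 1.33, 1.46 and 1.53 RPKM in DKO libraries, at 12.2, 14.9, 12.6 and 10.7 in Ikzf1 KO, at 1.15, 0.919, 0.447 and 0.443 in Ikzf3 KO, and at 17.5, 18.1, 20.0 and 17.9 in Cre only libraries. None of the 3 knockout groups overlapped the controls. Group means were 1.44 ± 0.103 RPKM in DKO (SD, n = 3), 12.6 ± 1.74 in Ikzf1 KO, 0.740 ± 0.354 in Ikzf3 KO and 18.4 ± 1.11 in Cre only cells (SD, n = 4 each). Set against the Cre only mean, that left 7.84% in DKO, 68.7% in Ikzf1 KO and 4.03% in Ikzf3 KO cells. In bulk RNA, fewer cells that express a gene and less RNA per cell cannot be told apart.

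The DKO difference in Slfn8 was -3.28 ± 0.19 on the log2 scale (SE, adjusted p = 5.23e-08) and the Ikzf3 KO difference was -3.97 ± 0.17 (adjusted p = 5.1e-09). Both held under all alternatives run. In Ikzf1 KO cells the difference was -0.53 ± 0.17 (adjusted p = 0.0868), which missed the threshold. It passed with a pseudocount of 1 (adjusted p = 0.0394), in a fit of these 2 groups alone (0.00756), with libraries weighted by their spread (0.00109), without Ikzf3 KO library S1 (0.0425) and without S3 and S4 (0.00447). The low libraries rested on 81 to 122 reads in DKO and 22 to 56 in Ikzf3 KO, against 1037 to 1197 in Cre only libraries, as recovered from the RPKM and gene lengths. Of the 75-base windows in Slfn8 transcripts 6.99% also occur in another gene, mainly Slfn10-ps.

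Slfn8 was also the only member called, with all libraries equally weighted and the pseudocount of 0.5, when DKO cells were tested for a departure from the sum of both single deletions. In that test 6.55% of all genes were called, 3.63% above the sum and 2.92% below it. The departure was 1.22 ± 0.25 (SE, adjusted p = 0.0103), so that the fall was smaller in DKO cells than the 2 single falls added on the log2 scale. Of the 2 single falls, that in Ikzf1 KO cells was itself not called (adjusted p = 0.0868). The departure was robust to the settings run. It was called under every alternative, with adjusted p up to 0.0406. A pseudocount of 0.1, which compresses the low Ikzf3 KO values less than 0.5 does, also gave a call. The other 5 departures were not called: 2.04 ± 0.71 for Slfn1 (adjusted p = 0.112), 1.12 ± 0.36 for Slfn5 (0.0818), 0.34 ± 0.31 for Slfn2 (0.562), 0.05 ± 0.33 for Slfn3 (0.945) and -0.16 ± 0.29 for Slfn9 (0.773). Slfn1 passed without S5 (adjusted p = 0.0466) or without S18 and S19 together (0.0431), and Slfn2 without S3 and S4 together (0.0384). Slfn5 passed with a pseudocount of 0.1 (0.0353) and without S13 (0.0415), S19 (0.0379) or both S18 and S19 (0.0487). With weighted libraries the departure was called for Slfn1 (2.11, adjusted p = 0.0188), Slfn2 (0.56, 0.036) and Slfn5 (1.18, 0.0175).

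Slfn9, the neighbour of Slfn8, had its highest level in Ikzf1 KO cells, where the Slfn8 libraries lay below the controls but the difference was not called. It stood at 7.84, 9.94 and 8.70 RPKM in DKO libraries, at 17.6, 20.1, 15.9 and 15.5 in Ikzf1 KO, at 5.52, 4.68, 3.48 and 2.54 in Ikzf3 KO, and at 8.46, 7.38, 5.34 and 7.14 in Cre only libraries. The Ikzf1 KO libraries lay above all others, the DKO libraries overlapped the controls, and Ikzf3 KO library S1 lay above Cre only library S18.

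Mean Slfn9 was 17.3 ± 2.07 RPKM in Ikzf1 KO and 7.08 ± 1.30 in Cre only cells (SD, n = 4 each), a difference of 1.24 ± 0.19 (log2, SE, adjusted p = 0.0016) that held under all alternatives. In Ikzf3 KO cells it averaged 4.05 ± 1.31 RPKM (SD, n = 4), lower than in Cre only cells by a log2 difference of -0.77 ± 0.19 (adjusted p = 0.0197). That call was lost without S3 (adjusted p = 0.0527), S4 (0.0516), S16 (0.0603) or S17 (0.0527), without S3 and S4 together (0.123) or S16 and S17 together (0.156), and in a fit of these 2 groups alone (0.106). In DKO cells it averaged 8.83 ± 1.06 RPKM (SD, n = 3), and its log2 difference of 0.31 ± 0.21 against Cre only cells was not called (adjusted p = 0.337). Other genes share 5.9% of the 75-base windows of Slfn9, again mainly Slfn10-ps.

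Slfn5, a long member whose human counterpart represses transcription of herpesviruses, differed in all 3 knockout groups, upward in 2 of them. It stood at 3.48, 1.58 and 2.50 RPKM in DKO libraries, at 1.66, 3.35, 1.84 and 1.66 in Ikzf1 KO, at 0.213, 0.144, 0.138 and 0.182 in Ikzf3 KO, and at 0.897, 1.15, 0.810 and 0.367 in Cre only libraries. No knockout group overlapped the controls. The Ikzf3 KO libraries held only 8 to 16 Slfn5 reads each, against 204 to 328 in DKO libraries, 174 to 257 in Ikzf1 KO and 38 to 107 in Cre only libraries.

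Slfn5 rose by 1.20 ± 0.26 on the log2 scale in DKO cells (SE, adjusted p = 0.00603) and by 1.00 ± 0.24 in Ikzf1 KO cells (adjusted p = 0.0242), both against Cre only cells, and its difference in Ikzf3 KO cells was -0.93 ± 0.24 (adjusted p = 0.0237). The Ikzf1 KO call was lost without S13 (adjusted p = 0.0874), S14 (0.0587), S18 (0.0616) or S19 (0.0565), and without S18 and S19 together (0.168), which also ended the DKO call (0.0524). The Ikzf3 KO call was lost without S3 (0.055), S4 (0.0503), S16 (0.0604), S17 (0.0732) or S18 (0.0564), without S3 and S4 together (0.0865) and without S16 and S17 together (0.182). In a fit of the Ikzf3 KO and Cre only libraries alone Slfn5 fell under the filter and could not be tested. The antisense gene Slfn5os overlaps Slfn5 over 7.62% of its 75-base windows, and whether the authors counted by strand is not given in the sources used here.

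Slfn1, a short Schlafen gene whose forced expression is known to slow thymocyte growth in mice, was high in DKO libraries, at 1.69, 5.84 and 6.65 RPKM. It stood at 0.334, 1.11, 1.44 and 0.167 RPKM in Ikzf1 KO, at 0.632, 0.977, 0.0852 and 0.530 in Ikzf3 KO, and at 1.00, 1.31, 0.199 and 0.0656 in Cre only libraries. Every DKO library lay above the other 12, although S5 lay close to the highest of them, Ikzf1 KO library S14. The DKO libraries held 47, 222 and 192 Slfn1 reads, and the other libraries 2 to 40 reads.

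Mean Slfn1 was 4.73 ± 2.66 RPKM in DKO (SD, n = 3) and 0.645 ± 0.608 in Cre only cells (SD, n = 4), a ratio of 7.33 and a log2 difference of 2.19 ± 0.52 (SE, adjusted p = 0.00961). The call was lost without S6 (adjusted p = 0.0585) or S7 (0.0522), and without S18 and S19 together the difference was 1.49 (0.108). In Ikzf1 KO cells the difference was 0.17 ± 0.48 (adjusted p = 0.916) and in Ikzf3 KO cells -0.02 ± 0.48 (0.979). With SEs of that size and so few reads, small changes of Slfn1 were not detectable in either single knockout.

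The summed RNA of T cell markers was also high in the DKO libraries. Of 6 T cell markers, 5 had a row, and their RPKM summed to 120 to 273 in DKO, 15.6 to 54.1 in Ikzf1 KO, 18.4 to 45.4 in Ikzf3 KO and 11.2 to 76.4 in Cre only libraries. Cd3d, a chain of the T cell receptor complex, stood at 63.8, 177 and 164 RPKM in DKO libraries S5 to S7, against 20.4, 23.9, 6.75 and 2.97 in Cre only libraries S16 to S19. Slfn1 was lowest in the same DKO library as Cd3d and lowest in the same 2 Cre only libraries. Cd3e averaged 37.3 RPKM in DKO and 1.52 in Cre only cells. Cd3g stood at 30.2, 52.4 and 56.3 RPKM in DKO libraries, against 46.9, 49.1, 24.8 and 8.01 in Cre only libraries. Its log2 difference of 0.76 ± 0.58 in DKO cells was not called (SE, limma adjusted p = 0.398). Cd4 and Cd8a, which define the main T cell classes, were low in all groups. Cd4 averaged 0.940 RPKM in DKO and 0.204 in Cre only cells, and Cd8a averaged 0.0438 RPKM in DKO and 0.293 in Cre only cells. The part of T cell gene RNA in the Slfn1 result was not tested.

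Slfn2, the short member tied to quiescence in mouse T cells, was abundant in every group. It stood at 157.8, 167.0 and 146.9 RPKM in DKO libraries, at 160.9, 198.3, 180.5 and 151.7 in Ikzf1 KO, at 75.9, 102.8, 102.9 and 192.1 in Ikzf3 KO, and at 173.0, 148.2, 145.6 and 151.8 in Cre only libraries. In the Ikzf3 KO group, 3 libraries lay below all libraries of the other groups, and S4 lay above every Cre only library. The log2 difference from Cre only cells was 0.03 ± 0.23 in DKO (SE, adjusted p = 0.957), 0.16 ± 0.21 in Ikzf1 KO (0.795) and -0.47 ± 0.21 in Ikzf3 KO cells (0.137). Without S4 the Ikzf3 KO difference was -0.73 (adjusted p = 0.00468), and without S3 and S4 it was -0.80 (0.00449). With weighted libraries it was -0.78 (0.000968).

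Slfn3, the intermediate member, stood at 5.29, 11.2 and 10.3 RPKM in DKO libraries, at 8.72, 9.58, 9.03 and 8.04 in Ikzf1 KO, at 7.11, 5.78, 5.29 and 5.24 in Ikzf3 KO, and at 5.66, 4.28, 7.08 and 8.75 in Cre only libraries. Each knockout group overlapped the controls. Its log2 difference from Cre only cells was 0.42 ± 0.24 in DKO (SE, adjusted p = 0.251), 0.47 ± 0.22 in Ikzf1 KO (0.269) and -0.09 ± 0.22 in Ikzf3 KO cells (0.788). Without DKO library S5 the DKO difference was 0.74 (adjusted p = 0.03). With libraries weighted by their spread, Slfn3 was called both in DKO (0.79, adjusted p = 0.00141) and in Ikzf1 KO cells (0.63, 0.00134). Other genes share 6.78% of the 75-base windows of Slfn3 (231 of 3409), the pseudogene Gm11427 most often, with 127 windows.

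**Figure D2:**
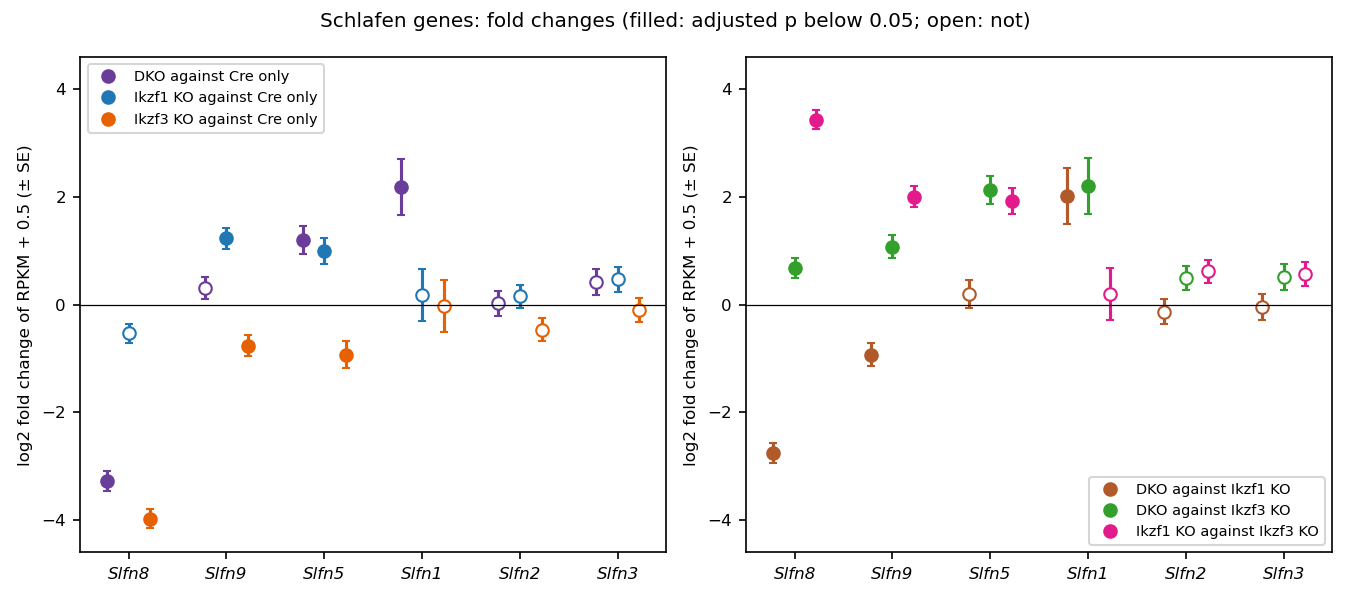
Log2 difference of each Schlafen gene from Cre only cells in DKO, Ikzf1 KO and Ikzf3 KO cells, on the log2(RPKM + 0.5) scale. A second panel compares the knockout groups with each other in the same way. Points are limma estimates, bars are 1 SE on each side, and filled points passed an adjusted p of 0.05. Slfn8 lies far below 0 in DKO and Ikzf3 KO cells, at -3.28 and -3.97, and Slfn5 lies on opposite sides of 0 in Ikzf1 KO and Ikzf3 KO cells.

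The single knockouts were then compared with each other. Of the 6 members 3 changed, all higher in Ikzf1 KO than in Ikzf3 KO cells (17.7% of genes changed, 9.01% upward and 8.68% downward). They were the 3 long members. Slfn8 differed by 3.44 ± 0.17 (log2, SE, adjusted p = 2.53e-08), a ratio of means of 17.05. Slfn9 differed by 2.00 ± 0.19 (adjusted p = 1.54e-05), a ratio of 4.26, and Slfn5 by 1.93 ± 0.24 (adjusted p = 0.000122), a ratio of 12.6. These 3 calls held under all alternatives. Slfn2 (0.62 ± 0.21, adjusted p = 0.0553), Slfn3 (0.56 ± 0.22, 0.0889) and Slfn1 (0.20 ± 0.48, 0.789) were not called, although Slfn2 was called without S4 (adjusted p = 0.000742), without S3 and S4 (0.001) and with weighted libraries (2.88e-05). Slfn3 was called without S5 (adjusted p = 0.0399), in a fit of these 2 groups alone (0.0307) and with weighted libraries (0.0141). Libraries of the groups did not overlap for Slfn3, Slfn5, Slfn8 and Slfn9, as for 25.6% of all genes. The members' median difference was 1.28, against 0.027 over all genes.

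Against Ikzf3 KO cells, DKO cells had 4 members higher and none lower, where 20.1% of genes changed, 10.2% upward and 9.85% downward. The libraries of the groups did not overlap for these 4, as for 24.2% of all genes. Slfn1 differed by 2.21 ± 0.52 (log2, SE, adjusted p = 0.00854), Slfn5 by 2.13 ± 0.26 (adjusted p = 7.4e-05), Slfn9 by 1.08 ± 0.21 (0.0025) and Slfn8 by 0.69 ± 0.19 (0.0184). The DKO mean of Slfn5 was 14.9 times the Ikzf3 KO mean. Only the Slfn5 and Slfn9 calls held under all alternatives. The Slfn8 call was lost without S3 (adjusted p = 0.0525), S6 (0.0617) or S7 (0.0633), without S3 and S4 together (0.0909) and in a fit of these 2 groups alone (0.17). The Slfn1 call was lost without S3 and S4 together (0.055). Slfn2 and Slfn3 were not called, at 0.49 ± 0.23 (adjusted p = 0.138) and 0.52 ± 0.24 (0.142), although Slfn2 was called without S4 (adjusted p = 0.00247), without S3 and S4 (0.00189) and with weighted libraries (0.00179). Slfn3 was called without S5 (adjusted p = 0.0186) and with weighted libraries (0.0104).

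Against Ikzf1 KO cells, DKO cells had Slfn1 higher and Slfn8 and Slfn9 lower, where 7.48% of genes changed, 3.76% upward and 3.72% downward. The libraries of the groups did not overlap for these 3, as for 31.8% of all genes. Slfn8 differed by -2.75 ± 0.19 (log2, SE, adjusted p = 1.17e-06), which held under all alternatives. Slfn9 differed by -0.93 ± 0.21 (adjusted p = 0.0143), a call lost without S7 (0.0504). Slfn1 differed by 2.01 ± 0.52 (adjusted p = 0.0295), a call lost with a pseudocount of 0.1 (0.0786) and without S6 (0.15), S7 (0.13), S12 (0.0917) or S15 (0.0811). Slfn5, higher than Cre only in both groups, differed by 0.20 ± 0.26 between them (adjusted p = 0.729).

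The order of the group means was not the same for any 2 of Slfn5, Slfn8 and Slfn9. For Slfn8 it ran, high to low, Cre only, Ikzf1 KO, DKO, Ikzf3 KO, with Cre only and Ikzf1 KO not distinguished. For Slfn9 it ran Ikzf1 KO, DKO, Cre only, Ikzf3 KO, with DKO and Cre only not distinguished. For Slfn5 it ran DKO, Ikzf1 KO, Cre only, Ikzf3 KO, with DKO and Ikzf1 KO not distinguished. For each of the 6 members the lowest group mean was that of Ikzf3 KO cells. For Slfn1, Slfn2 and Slfn3, however, Ikzf3 KO and Cre only cells were not distinguished (limma adjusted p = 0.979, 0.137 and 0.788).

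The pseudogene Slfn10-ps, which lies between Slfn8 and Slfn2, was the only other Schlafen gene with a row. Its mean was 1.78 RPKM in DKO, 1.25 in Ikzf1 KO, 3.00 in Ikzf3 KO and 2.07 in Cre only cells. It was highest where Slfn8 and Slfn9 were lowest, and it was lower in Ikzf1 KO than in Ikzf3 KO cells by a log2 difference of -0.99 ± 0.18 (SE, adjusted p = 0.00206). None of its 3 differences from Cre only cells was called.

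Within 1 Mb on either side of the cluster, 24 other genes were tested. Of these, 2 were higher and 5 lower in DKO cells, 1 higher and 2 lower in Ikzf1 KO cells, and 2 higher and 6 lower in Ikzf3 KO cells, all against Cre only cells. Those shares are 29.2%, 12.5% and 33.3% of the neighbours, against 18.7%, 6.32% and 14.2% of all genes. The pseudogene Gm11427, inside the span of the cluster, rose by 0.81 ± 0.20 in DKO cells (log2, SE, adjusted p = 0.0115). AA465934, a noncoding transcript, begins 4973 bases past the far end of the cluster.

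AA465934 stood at 24.0, 31.05 and 24.0 RPKM in DKO libraries, at 1.75, 1.51, 0.942 and 1.63 in Ikzf1 KO, at 24.2, 29.0, 22.1 and 33.3 in Ikzf3 KO, and at 0.875, 1.05, 1.36 and 1.38 in Cre only libraries. The DKO and Ikzf3 KO libraries lay far above the others, the opposite of Slfn8. The log2 difference from Cre only cells was 4.01 ± 0.19 in DKO (SE, adjusted p = 7.79e-09), 0.22 in Ikzf1 KO (0.564) and 4.05 ± 0.17 in Ikzf3 KO cells (5.1e-09). Farther along, the chemokine gene Ccl5 differed from Cre only cells by -3.18 in DKO, -1.35 in Ikzf1 KO and -4.45 in Ikzf3 KO cells, and Heatr9 by -1.80, -1.44 and -1.82 in the same order. Both were called lower in each of the 3 knockouts.

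**Figure D3:**
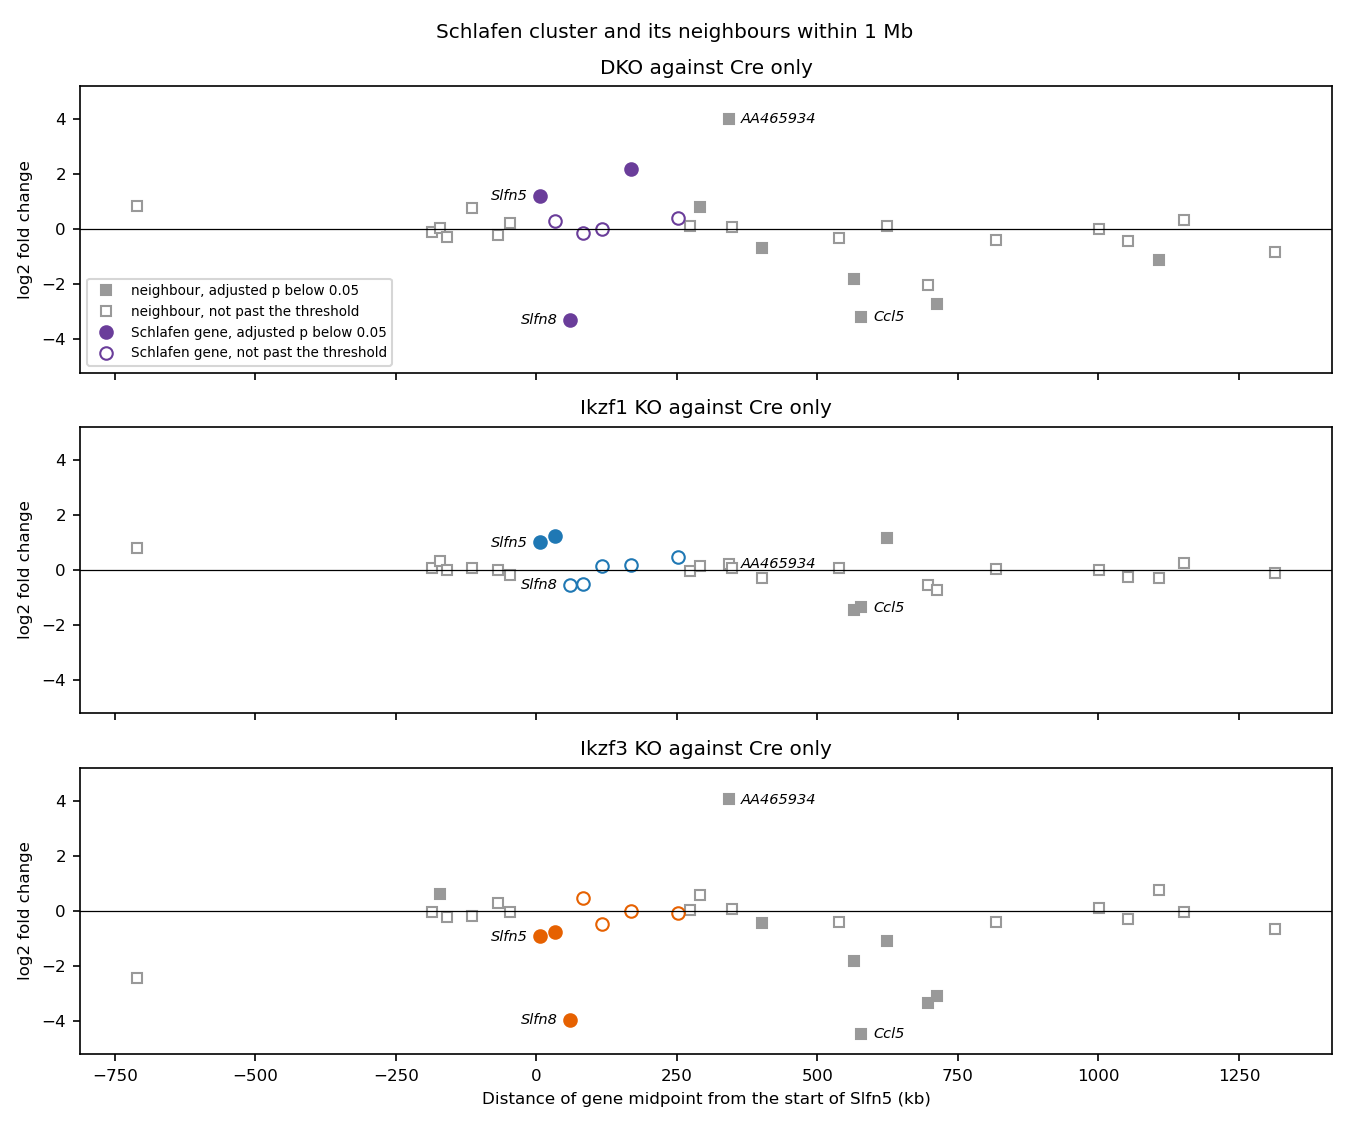
Log2 difference from Cre only cells in DKO, Ikzf1 KO and Ikzf3 KO cells of Schlafen genes and other tested genes. The horizontal axis is the distance of the gene midpoint from the start of Slfn5. Points are limma estimates on the log2(RPKM + 0.5) scale and filled points passed an adjusted p of 0.05. Slfn8 and the neighbour AA465934 lie on opposite sides of 0 in DKO and Ikzf3 KO cells.

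Across the 15 libraries, the gene whose pattern was most like that of Slfn8 was Ikzf3 itself (Pearson r = 0.958 on the log2 scale), followed by the transporter gene Abcb1a (0.945) and the class I gene H2-K1 (0.938), out of 6360 genes searched. For Slfn9 they were Ptpn12 (0.941), Zfp282 (0.915) and B4galnt2 (0.910), and for Slfn5 Inpp4b (0.933), Tmem176a (0.926) and Tmem176b (0.919). For Slfn1 they were genes of the T cell receptor complex: Tcrg-C2 (0.955), Cd3d (0.948) and Trbv16 (0.934).

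For Slfn2 they were Retreg1 (0.895), Plgrkt (0.861) and Sla (0.832). For Slfn3 they were Wdr76 (0.908), the DNA replication gene Rpa2 (0.894) and Plk4 (0.887), a kinase of centriole duplication. The 15 points share 4 genotypes, so these values describe the pattern over genotypes as much as within them, and Ikzf3 is itself the deleted gene in 7 libraries.

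**Figure D4:**
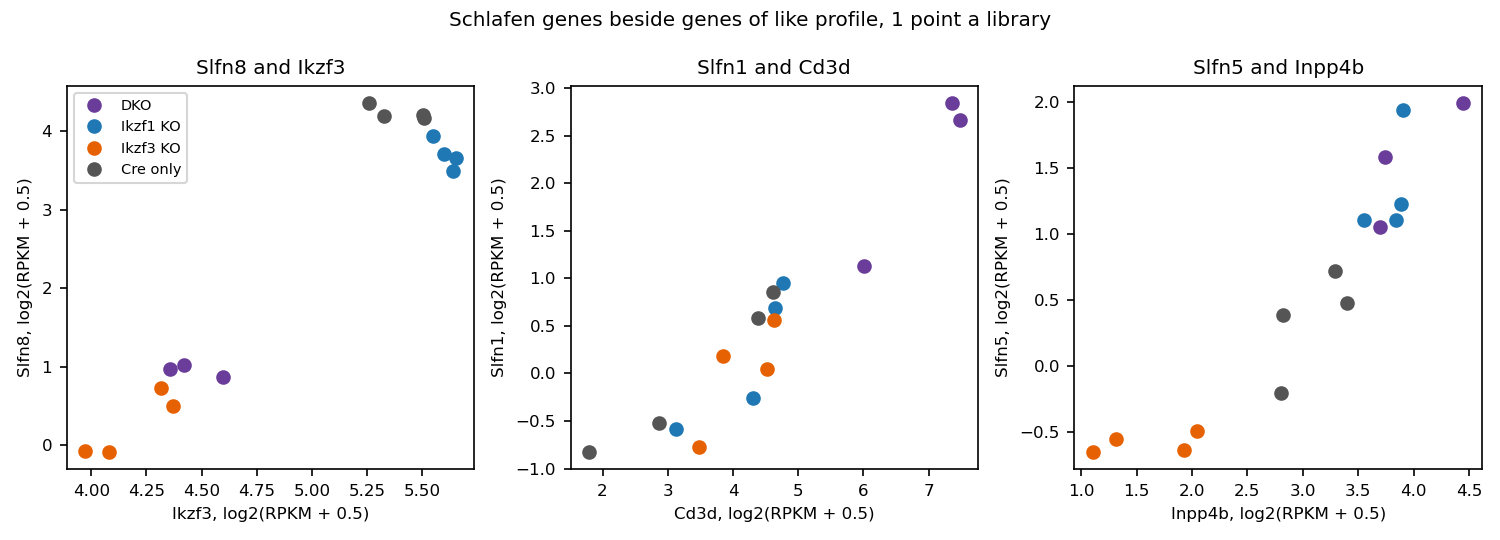
Log2(RPKM + 0.5) of Slfn8, Slfn1 and Slfn5 (vertical) against that of Ikzf3, Cd3d and Inpp4b in turn (horizontal) over the 15 cultured NK libraries. Each gene on the horizontal axis is among those most like the member. Points are libraries, coloured by genotype. The points for Slfn8 against Ikzf3 follow a rising line (r = 0.958) on which DKO and Ikzf3 KO libraries share the low end.

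Because Schlafen genes respond to interferon, 2 interferon lists were counted whole. Over all genes tested, the reference for both lists, 8.06% rose and 10.6% fell in DKO cells against Cre only cells. The shares were 3.54% and 2.78% in Ikzf1 KO and 6.3% and 7.88% in Ikzf3 KO cells. Of 11 tested genes of type I interferon signalling, 1 rose and 1 fell in DKO cells, 0 changed in Ikzf1 KO cells and 3 fell in Ikzf3 KO cells, against Cre only cells. Tyk2, a receptor kinase, differed by -0.70 in DKO (adjusted p = 0.00749) and by -0.70 in Ikzf3 KO cells (0.00787). Usp18, which restrains the receptor, rose in DKO cells by 0.83 (0.0331).

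Of 22 tested interferon-induced effector genes, 4 rose and 3 fell in DKO cells, 4 rose and 0 fell in Ikzf1 KO cells, and 0 rose and 3 fell in Ikzf3 KO cells. Their median log2 difference was 0.08 in DKO, 0.30 in Ikzf1 KO and -0.30 in Ikzf3 KO cells, with all-gene medians of -0.00077, -0.0058 and -0.016. Oasl2 rose by 2.56 ± 0.40 in DKO cells (SE, adjusted p = 0.000513) and Rtp4 differed by -0.87 in Ikzf3 KO cells. In Ikzf1 KO against Ikzf3 KO cells 10 of the 22 were higher and 0 lower, with a median of 0.80. Over all genes in that comparison 9.01% were higher and 8.68% lower, with a median of 0.027. The 3 long Schlafen genes were also higher in that comparison. Against Cre only cells they parted. In DKO cells Slfn8 differed by -3.28, Slfn5 was higher and Slfn9 was not called. In Ikzf1 KO cells Slfn5 and Slfn9 were higher, and Slfn8 differed by -0.53, which was not called. Whether the long members and the effectors share a cause was not tested.

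Of 9 tested genes of transfer RNA cleavage and its control, 0 changed in DKO or Ikzf3 KO cells against Cre only cells, and Tsen34, a subunit of the splicing endonuclease, rose by 0.36 in Ikzf1 KO cells. Of 12 quiescence genes, 3 rose and 1 fell in DKO cells, 1 rose and 1 fell in Ikzf1 KO cells, and 1 rose and 1 fell in Ikzf3 KO cells. Klf2, which keeps lymphocytes resting and circulating, rose by 1.72 in DKO, by 1.36 in Ikzf1 KO and by 1.39 in Ikzf3 KO cells. S1pr1, a receptor for leaving tissues, rose by 3.58 in DKO cells, and Foxo1 differed there by -0.63. Of 9 tested genes of G1 control, 0 changed in DKO or Ikzf1 KO cells. In Ikzf3 KO cells 2 fell, Ccnd3 by -0.78 (adjusted p = 0.00854) and Ccnd2 by -1.13 (0.0356). Over all genes tested, 8.06% rose and 10.6% fell in DKO cells against Cre only cells. The shares were 3.54% and 2.78% in Ikzf1 KO and 6.3% and 7.88% in Ikzf3 KO cells.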

How the data were processed

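NK cells were cultured, and polyadenylated RNA was sequenced as 75-base single-end reads from directional libraries, per the labels' protocols. The authors deposited 1 table of RPKM values, with no counts. Tools listed per the submitters' processing notes are STAR, featureCounts and limma 3.34.9, with the mm10 build and no settings. Column headers give genotypes only. Groups were matched to the cultured samples because each genotype has as many columns as cultured samples, and the 6 directly sorted samples were not analysed here.

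Genes with at least 1 RPKM in at least 3 of 15 libraries (10032) were fitted with limma 3.58.1 (R 4.3.3; trended, robust empirical Bayes) on log2(RPKM + 0.5), with 1 mean per genotype and 11 residual degrees of freedom. P-values are 2-sided and Benjamini-Hochberg adjusted over all genes. They measure the spread between libraries that the labels call biological replicates, with no animal named. The members, lists and comparisons were chosen with earlier results of these data known.

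Whole reads were recovered for 11291 of 11732 genes (96.2%, within 0.02 read) from exon lengths of GENCODE mouse release M21, which also gave positions. Promoters are from RefSeq. The genes named besides the members were the 2 targeted genes, Slfn10-ps and at most 4 per list and comparison by smallest adjusted p. The 3 genes most like each member among those averaging at least 5 RPKM, and some cell type markers, were also named. The neighbours AA465934, Ccl5, Heatr9 and Gm11427 were singled out after their values were seen. The fit was also run on simulated data, and the outcome is not given here. The simulated libraries were independent and changes were placed only in genes with higher Cre only levels than Slfn1 and Slfn5. That run therefore says nothing about these 2 genes or about libraries that pair. Alternatives changed the pseudocount (0.1 and 1), the filter, the scaling, the library weights and the libraries; 3 that leave out pairs of libraries were chosen after seeing the data.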

Additional observations from a re-analysis of the deposited data

Results flagged for a closer look

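Slfn5 in Ikzf1 KO cells had 1 library apart from its group. Library S13 stood at 3.35 RPKM, against 1.66, 1.84 and 1.66 RPKM in S12, S14 and S15. Its gap to the nearest library was 0.89 of the group's range, above Dixon's 95% critical value for 4 libraries. In all, 18 sets of 4 libraries (a member in a genotype) were checked, and chance flags about 1 in 20. Without S13 the Slfn5 difference from Cre only cells was no longer called (adjusted p = 0.0874).

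Slfn8 differed from the controls in DKO cells by less than the 2 single deletions summed. The departure was 1.22 ± 0.25 on the log2 scale (SE, limma adjusted p = 0.0103), and it was called under every alternative run. Of the 2 single differences, that in Ikzf1 KO cells was itself not called (adjusted p = 0.0868).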

How the results depend on the processing

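No paired analysis was possible because the columns carry no replicate number. Slfn1 or Slfn5 fell under the filter in some fits of 2 groups alone, and the departure test has no such fit. In DKO against Cre only cells 1872 genes changed, against 4477 with library weights, 3642 without S3 and S4, 1083 with S16 and S17 left out, and 976 to 2299 when leaving out each library in turn. In Ikzf1 KO cells 634 changed, against 1927 in the 2 groups alone, 3634 with weights, 1698 without S3 and S4, 366 with S16 and S17 left out, and 332 to 822 leaving out each in turn. In Ikzf3 KO cells 1423 changed, against 431 in the 2 groups alone, 2367 with weights, 555 without S16 and S17, 740 without S18 and S19, and 819 to 2985 leaving out each in turn. Between DKO and Ikzf1 KO cells 750 differed, against 1700, 3965 with weights, 2125 without S3 and S4, and 335 to 1122. Between DKO and Ikzf3 KO cells 2012 differed, against 664 in the 2 groups alone and 1169 to 3080. Between Ikzf1 KO and Ikzf3 KO cells 1775 differed, against 1033, 3082 with weights, 1107 without S3 and S4, and 869 to 3334. Departures were called for 657 genes, against 2406 with weights, 1005 without S3 and S4, and 344 to 839.

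Of the Schlafen genes, 3 were called in DKO against Cre only cells, 1 without S18 and S19, and 2 to 4 leaving out each library. In Ikzf1 KO cells 2 were called, 4 with weights, 1 without S18 and S19, and 1 to 3. In Ikzf3 KO cells 3 were called, 1 in the 2 groups alone, 1 with S16 and S17 left out, and 1 to 3. Between DKO and Ikzf1 KO cells 3 were called, with 1 to 3 leaving out each library, and between DKO and Ikzf3 KO cells 4, with 3 to 5. Between the single knockouts 3 were called, 5 with weights, and 3 to 4. For the departure 1 was called, 2 with a pseudocount of 0.1, 4 with weights, 2 without S3 and S4, 3 without S18 and S19, and 1 to 2 leaving out each. The cause was not tested.

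Signs turned only for differences that were not called. Slfn2 in DKO against Cre only cells was -0.0646 with weights, -0.0282 without S18 and S19, and -0.019 to 0.0802 leaving out each library. Slfn1 in Ikzf1 KO cells was -0.52 without S18 and S19 and -0.11 to 0.45 leaving out each. In Ikzf3 KO cells it was 0.0641 with a pseudocount of 0.1, 0.34 without the pair S3 and S4, 0.67 with S16 and S17 left out, and -0.31 to 0.25. Slfn3 in Ikzf3 KO cells was 0.13 with weights, 0.0356 without S3 and S4, 0.22 without S18 and S19, and -0.26 to 0.0573. Between DKO and Ikzf1 KO cells Slfn3 was 0.15 with weights and -0.24 to 0.27, and Slfn5 -0.0266 to 0.44. Slfn1 between the single knockouts was -0.17 without S3 and S4 and -0.0636 to 0.46. Departures were -0.0836 without S3 and S4, -0.27 without S18 and S19 and -0.14 to 0.37 for Slfn3, and 0.0045 without S18 and S19 for Slfn9.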
